A study of Mus musculus with 2 samples.

Results

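The BCL2 family of survival and death genes was examined in mouse primary T cells activated through CD3 and CD28, with and without triptolide. Its 10 members were chosen by name as 3 antiapoptotic genes (Mcl1, Bcl2 and Bcl2l1), 2 effectors (Bax and Bak1) and 5 BH3-only genes (Bcl2l11, Bmf, Bid, Pmaip1 and Bbc3). Every probe set annotated to exactly 1 of these symbols was taken, which gave 30 of 34945 probe sets with a single symbol and 9 of 18193 genes. No probe set used here was annotated to Bax, so Bax was not analysed here. No probe set that carries several symbols included a member.

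Both groups were primary T cells that received antibodies against CD3 and CD28 and had been kept in culture for 18 h. The first group had no triptolide in its label, and the second received triptolide at 50 ng/ml. Each group was 1 sample on 1 array, with no replicates and no unstimulated sample. The sources used here state neither the mouse strain, age and number of animals nor how long triptolide was present. All comparisons are therefore between 2 arrays, no p-value or error over replicates can be given, and a difference may belong to the cultures as much as to the treatment. The values are MAS5 signals, a linear intensity per probe set.

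BCL2 family proteins control whether the outer mitochondrial membrane is opened. Antiapoptotic members hold the effectors BAX and BAK in check, and BH3-only proteins either occupy the groove of the antiapoptotic members or activate the effectors directly, after which cytochrome c leaves the mitochondria and caspases are activated. Resting T cells rely on BCL2 and MCL1 downstream of interleukin 7, costimulation through CD28 raises BCL-XL (the product of Bcl2l1), and BIM (Bcl2l11) drives the death of activated T cells at the end of a response. NOXA (Pmaip1) and PUMA (Bbc3) are p53-induced BH3-only proteins, and NOXA binds MCL1 in preference to BCL2. Triptolide, a plant diterpenoid, binds the XPB subunit of the general transcription factor TFIIH and lowers transcription by RNA polymerase II, and MCL1 is known for a short-lived mRNA and protein.

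With triptolide, Bcl2 and Mcl1 signals were lower on all of their probe sets. Of their 11 probe sets, which read only 2 transcripts, 8 were at least 2-fold lower, against 12.8% of all detected probe sets. The only probe set of Pmaip1 was 5.30-fold higher and the brightest of Bmf at least 5.03-fold higher, while the other detected Bmf probe set was lower. Bcl2l1, Bak1, Bid, Bbc3 and the brightest probe set of Bcl2l11 lay within 2-fold. Ratios of the antiapoptotic genes thus lay on both sides of 0, and so did those of the BH3-only genes.

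A floor for background was set at a signal of 118.4, the higher of the 95th percentiles of 87 probe sets for chemosensory receptors (smell, taste, pheromone and trace amine) on the 2 arrays. Signals under the floor were raised to it before a ratio was taken. A probe set above the floor on at least 1 array was called detected, and a fold with 1 side under the floor is a lower bound, written "at least". Of the 30 member probe sets, 25 exceeded the floor on each array, 1 was above it only with triptolide, and 4 were under it on both. Of the 26 detected ones, 2 were at least 2-fold higher (7.69%, against 5.69% of 19209 detected probe sets in all) and 9 at least 2-fold lower (34.6%, against 12.8%). These shares lean on Mcl1 and Bcl2, whose 11 probe sets read the same 2 transcripts and are not independent. Those with x_at in their ID are open to sharing probes with other transcripts, which the brightest probe set of each of these genes is not marked for. Counted by gene on the brightest probe set, 2 of the 9 members with a probe set were at least 2-fold higher (5.6% of 10886 detected genes in all) and 2 at least 2-fold lower (12.4%). The higher genes include Bmf, whose brightest probe set passed the floor only on the array where it was high and whose probe sets disagree. Of these 2 genes only Pmaip1, on 1 probe set, is thus given a direction. With 9 genes these counts are a description and not a result about the family. The median log2 ratio was -0.62 over the detected member probe sets and -0.17 over all detected probe sets. By gene it was 0.23 over the 9 members and -0.16 over all detected genes, so the median of the members changed sign between counting probe sets and counting genes.

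**Figure D1:**
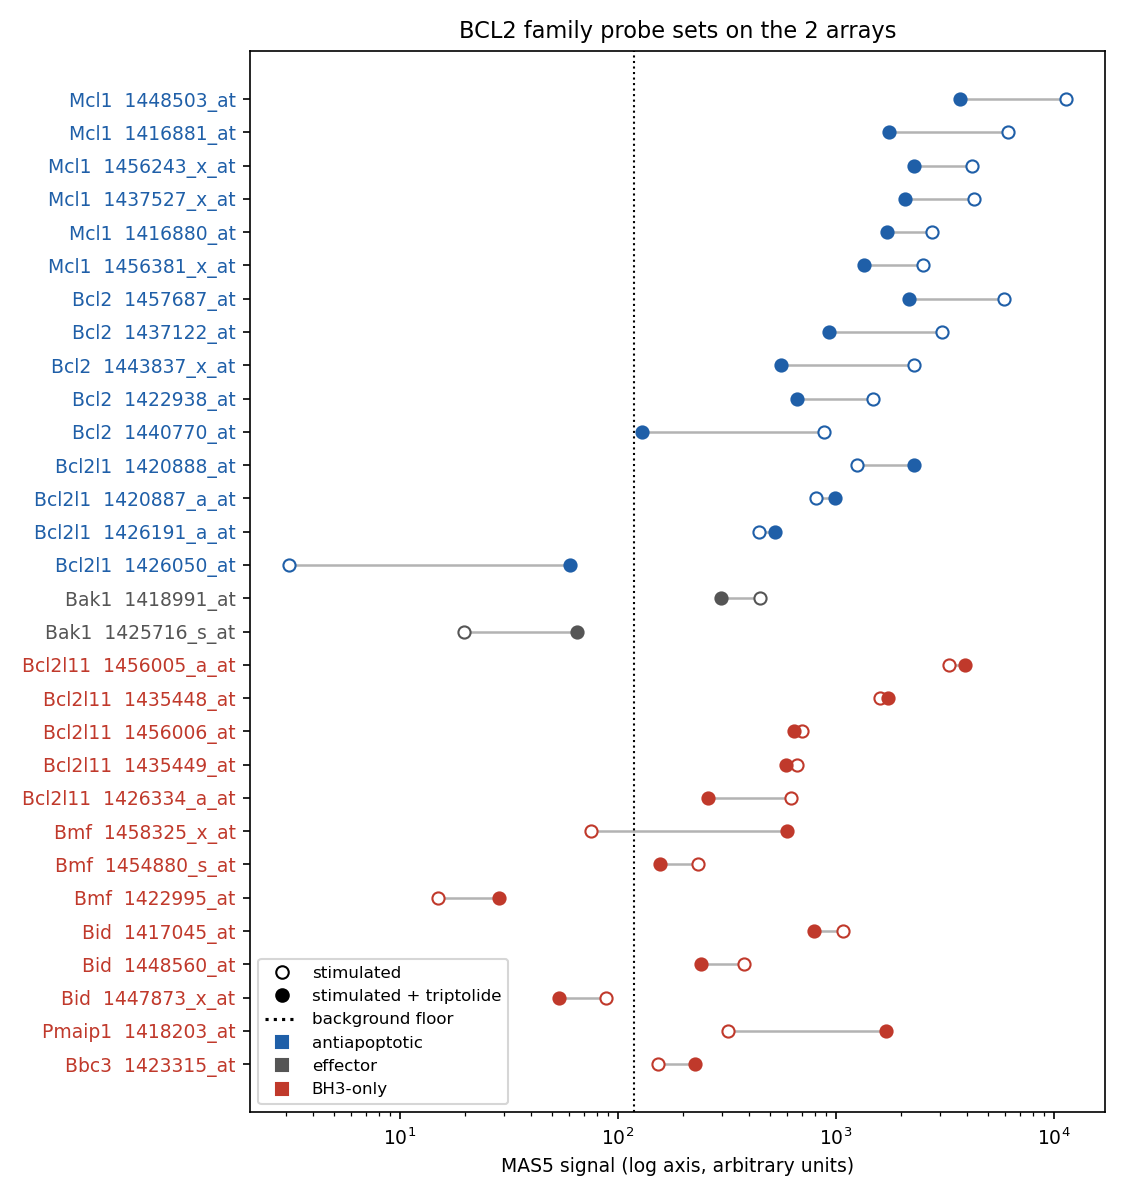
MAS5 signal (log axis) of all 30 probe sets of the 9 members, with open circles for stimulated cells and filled circles for stimulated cells with triptolide, 1 array each. The dotted line is the floor of 118.4, and colours mark antiapoptotic, effector and BH3-only genes. All 11 lines of Mcl1 and Bcl2 run to lower signals with triptolide.

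The arrays appear scaled on the first 100 listed probe sets, whose 2% trimmed mean was 2000.0 on both, and the share of lower genes among all 2-fold differences was 68.8% as deposited, 58.0% after scaling on the array medians, 50.8% after quantile normalization and 81.1% after scaling on 13 housekeeping genes. These settings shifted the median over detected genes (log2 scale) by 0.11, 0.17 and -0.16. Of 13 T cell markers, 12 had a probe set and all 12 were detected, with summed signals of 69664 without and 49651 with triptolide. Log2 ratios were below 0 for 9 of them, and 4 were at least 2-fold lower (Cd8a, Cd2, Lat and Cd4). The other 3 were above 0, with Cd3g at 0.18, Cd3e at 0.46 and Cd6 at 0.76, so the markers did not move together. B cell markers (7 of 9 detected) summed to 5274 and 3304, myeloid markers (5 of 8) to 5105 and 7070, neutrophil markers (5 of 7) to 731 and 703, and natural killer cell markers (3 of 6) to 1626 and 1774. Each sum takes in all markers with a probe set, also those under the floor. Of the 5 detected neutrophil markers, 3 had log2 ratios above 0 and 2 below, so that sum gives no direction. The B cell markers Blnk (305.7 to 84.1) and Cd22 (369.2 to 178.8) were at least 2-fold lower. Ighm, which made up most of the B cell sum, went from 3481.9 to 1805.1. Log2 ratios were below 0 for 6 of the 7 detected B cell markers. Cd79b was near level (357.5 to 338.2), and Cd79a went the other way (349.3 to 673.7, log2 ratio 0.95), so these markers did not move together either. The myeloid marker Lyz2 (72.2 to 259.5) and the neutrophil marker Mpo (77.4 to 240.2) were higher from under the floor, and Ctss, most of the myeloid sum, went from 4321.2 to 5970.9. No natural killer cell marker was past 2-fold, and Eomes, most of their sum, was level (1380.5 to 1380.4). The defining markers Pax5 of B cells, Itgam and Cd14 of myeloid cells, S100a9 of neutrophils and Ncr1 of natural killer cells were under the floor on both arrays. In such bulk RNA, fewer cells of a type and less RNA per cell cannot be told apart, and the part of other cells in the family's values was not tested.

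The promoters of Mcl1 and Bcl2 are shown because these were the 2 members whose probe sets were all lower with triptolide and at least 2-fold lower on the brightest. The sequences are the 250 bases before the annotated start, from RefSeq on build GRCm38.p6, 5′ to 3′ on the strand of the gene, with GC boxes (GGGCGG on either strand) in capitals. The window of Bcl2 is chr1:106714291-106714540 on the minus strand and that of Mcl1 is chr3:95658471-95658720 on the plus strand.
Bcl2: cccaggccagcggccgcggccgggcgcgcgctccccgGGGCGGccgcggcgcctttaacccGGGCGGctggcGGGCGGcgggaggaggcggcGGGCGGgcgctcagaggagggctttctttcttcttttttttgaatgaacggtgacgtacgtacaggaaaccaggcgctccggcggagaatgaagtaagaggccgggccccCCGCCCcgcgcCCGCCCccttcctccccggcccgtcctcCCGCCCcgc
Mcl1: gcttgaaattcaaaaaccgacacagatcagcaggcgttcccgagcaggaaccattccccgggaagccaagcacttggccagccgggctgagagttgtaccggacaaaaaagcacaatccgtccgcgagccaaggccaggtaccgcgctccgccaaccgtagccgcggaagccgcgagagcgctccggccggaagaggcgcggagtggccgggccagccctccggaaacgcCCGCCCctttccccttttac
The Bcl2 window held 7 GC boxes and 74.8% G and C, and the Mcl1 window 1 GC box and 64.4%, where the median over 32851 promoter windows of all genes was 52.4%. A GC box was found in 9 of the 16 windows searched for 9 members (several starts for some genes, with windows that can overlap; Bax is among these and Pmaip1, whose promoter was not searched here, is not) and in 32.7% of all windows. Neither window held a TATA box (TATAAA, either strand), which none of the 16 member windows and 12.4% of all windows held. The CCAAT box (CCAAT, either strand) was absent from both and present in 5 of the 16 and in 33.8% of all. The forkhead motif GTAAACA was found in 1 window each of Bcl2l11 and Bbc3 (3.17% of all windows), and the p53 half-site in 1 window each of Bmf and Bax (7.13%). The motif TTCNNNGAA bound by STAT factors (7.02% of all windows), the cAMP response element TGACGTCA (1.55%) and the CArG box (1.47%) had no match in the 16 windows, and the NF-kappaB motif matched 1 window each of Bcl2l1 and Bbc3 (3.9%). These are matches of letters in a short window and say nothing of binding. No matches of different motifs overlapped in the 16 windows.

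Mcl1 encodes the antiapoptotic protein that activated and memory T cells need throughout. Its brightest probe set, 1448503_at, gave a signal of 11358.6 without and 3697.7 with triptolide, a 3.07-fold lower value, and 1416881_at went from 6194.2 to 1747.9, or 3.54-fold lower. Probe set 1437527_x_at was 2.07-fold lower (4304 to 2076.1). The other 3 probe sets were lower but within 2-fold, with 1456243_x_at at 4221.1 and 2294, 1456381_x_at at 2507.5 and 1344.5, and 1416880_at at 2771.6 and 1711.2. The 6 log2 ratios thus ran from -1.83 to -0.70 with a median of -0.98, and all were below 0. Ranked by its brightest probe set, Mcl1 was the gene with the 354th lowest ratio of 10886. Among 202 genes with at least 5 probe sets measured above the floor on each array, 62 (30.7%) had all log2 ratios below 0, so agreement in sign alone was common.

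Bcl2 encodes the founding antiapoptotic member, which interleukin 7 sustains in resting T cells. Its 5 probe sets were each at least 2-fold lower with triptolide. The brightest, 1457687_at, went from 5932.1 to 2162.7 (2.74-fold lower), and 1437122_at from 3084.5 to 928.8 (3.32-fold). Probe set 1443837_x_at went from 2285.9 to 562.6 (4.06-fold) and 1422938_at from 1483.9 to 661.4 (2.24-fold). The dimmest, 1440770_at, went from 881.5 to 129.3 (6.82-fold), and there the treated signal was just above the floor. Log2 ratios ran from -2.77 to -1.17 with a median of -1.73, a spread of 1.60 between probe sets of 1 gene, where the median spread in the 202 genes was 1.11. Of those 202 genes, 4 (1.98%) had all their probe sets at least 2-fold lower, namely Bcl2, Hnrnpdl, Pvr and Snhg1. The probe set 1422938_at was at a log2 ratio of -0.96 after quantile normalization, so there 4 of the 5 were past 2-fold. By its brightest probe set Bcl2 had the 506th lowest ratio.

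Bcl2l1, whose long product BCL-XL protects activated T cells and whose short product promotes death, was the antiapoptotic member that was not lower. The brightest probe set, 1420888_at, gave 1245.9 without and 2276.7 with triptolide (1.83-fold higher, log2 ratio 0.87). Probe set 1420887_a_at gave 812 and 991.2, and 1426191_a_at gave 444.1 and 528.4, with log2 ratios of 0.29 and 0.25. All 3 were slightly to moderately higher and within 2-fold, and which splice form each reads is not given in the files. The brightest passed 2-fold only after quantile normalization, with a log2 ratio of 1.04. The last probe set, 1426050_at, was under the floor on both arrays, at 3.1 and 60.2. By its brightest probe set Bcl2l1 stood 795th from the top of the 10886 genes.

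Of the effectors, Bak1 encodes BAK, a protein of the outer mitochondrial membrane that forms pores once activated. Probe set 1418991_at gave 447.3 without and 296.5 with triptolide, a 1.51-fold lower value with a log2 ratio of -0.59. The other, 1425716_s_at, was under the floor on both arrays, at 19.8 and 65.2. The measured ratio stood at percentile 27.2 of all detected probe sets, inside their middle range (25th to 75th percentile) of -0.64 to 0.27.

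Among the BH3-only genes, Pmaip1 had the highest ratio of all members. Its single probe set, 1418203_at, gave 321.6 without and 1704.7 with triptolide, both above the floor. The log2 ratio of 2.41 was the 39th highest of 10886 detected genes and lay between 2.10 and 2.60 under 10 other ways of processing. Only the 3 scalings and the pseudocount changed it, since the other settings could not alter a single unshared probe set this far above the floor. With 1 probe set it had no second reading on the arrays.

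Bmf encodes a BH3-only protein that is held on dynein light chain at the actomyosin cytoskeleton and released on stress, and its probe sets disagreed. Probe set 1458325_x_at was under the floor without triptolide at 75.4 and reached 595.2 with it, at least 5.03-fold higher. Probe set 1454880_s_at was above the floor on both arrays and went the other way, from 233.5 to 156.9 (log2 ratio -0.57). The remaining one, 1422995_at, was under the floor on both arrays at 14.9 and 28.5. The first of these entered the count only through the array on which it was high, and no direction is given for the gene. The IDs of both detected probe sets mark them as open to sharing probes with other transcripts, and without such probe sets Bmf was not detected.

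Bcl2l11, which encodes BIM, stayed level on most of its probe sets. Probe set 1456005_a_at gave 3311.3 without and 3894 with triptolide, and 1435448_at gave 1594.9 and 1743.8. Probe sets 1456006_at (703.1 and 640.4) and 1435449_at (666.1 and 589.3) were slightly lower. These 4 had log2 ratios between -0.18 and 0.23, inside the middle range of all detected probe sets (percentiles 49.8 to 73.4). The fifth, 1426334_a_at, stood apart at 623.8 without and 259.7 with triptolide, or 2.40-fold lower (log2 ratio -1.26), and it was past 2-fold under all 8 alternatives tried on it. Which BIM transcript this probe set reads is not given in the files.

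Bid encodes a BH3-only protein that caspase 8 cleaves to link death receptors to mitochondria. Probe set 1417045_at gave 1079.5 without and 792.4 with triptolide, and 1448560_at gave 379.9 and 241.1. Both were lower within 2-fold, with log2 ratios of -0.45 and -0.66. The dimmer 1447873_x_at was under the floor on both arrays, at 87.8 and 54. Bbc3, which encodes PUMA, was near the floor on its single probe set 1423315_at, with 152.9 without and 227.1 with triptolide (1.49-fold higher, log2 ratio 0.57). That ratio ran from 0.18 to 0.78 over 9 other settings and was within 2-fold in each. Only the 3 scalings, a floor of 200 and the pseudocount changed it.

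**Figure D2:**
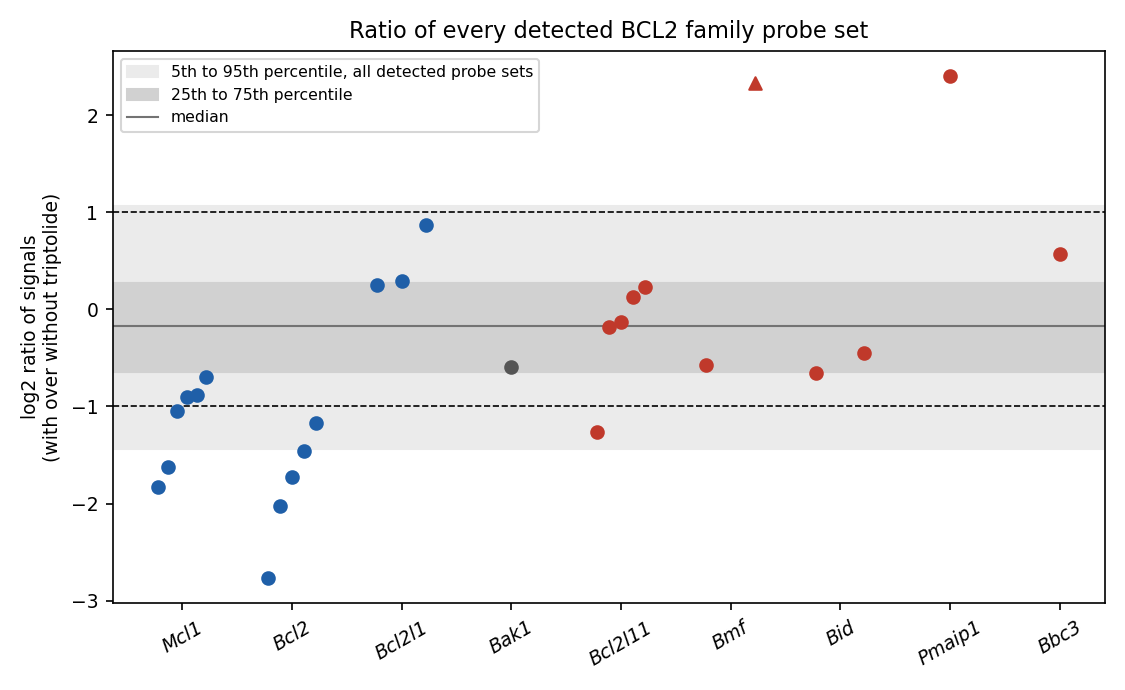
Log2 ratio of signals with over without triptolide for the 26 detected member probe sets, 1 point each, grouped by gene, with a triangle for the Bmf probe set that is a lower bound. Grey bands show the middle range and the 5th to 95th percentile (-1.44 to 1.06) of all 19209 detected probe sets, and dashed lines mark 2-fold. The 5 Bcl2 points lie below the lower dashed line, Pmaip1 and 1 of the Bmf points above the upper one.

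The spread between probe sets served as the guide to technical precision. Over 3733 genes with at least 2 probe sets past the floor on each array, the pooled SD of log2 ratios within a gene was 0.52, a figure that takes in probe quality and splice forms. The SD within Mcl1 was 0.45 over 6 probe sets, within Bcl2 0.61 over 5, within Bcl2l11 0.60 over 5 and within Bcl2l1 0.35 over 3. The ratios of Bak1, Bid, Bbc3, Bcl2l1 and the 4 level Bcl2l11 probe sets lay less than 2 such SDs from 0. Those of Pmaip1, of all 5 Bcl2 probe sets and of 3 of the 6 Mcl1 probe sets lay more than 2 SDs from 0, and the other 3 Mcl1 probe sets less. The fifth Bcl2l11 probe set, 1426334_a_at (-1.26), also lay more than 2 SDs from 0. For Bmf, 1458325_x_at (2.33, a lower bound) lay further than 2 SDs and 1454880_s_at (-0.57) did not. These counts depend on the origin. Taken from the median of all detected probe sets (-0.17), Bcl2 1422938_at (-0.99) and Mcl1 1437527_x_at (-0.88) lay less than 2 SDs away. From there the brightest Bcl2l1 probe set, 1420888_at, was about 2 SDs away (1.04), and Bcl2l11 1426334_a_at slightly further (-1.09). This scale says nothing of the spread between cultures.

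Genes that act with the family were taken from 6 lists. Of 17 other BCL2 family genes, 12 had a probe set, 7 were detected and 2 of these were past 2-fold on their brightest probe set, both downwards (12.4% of all detected genes). The median log2 ratio of the 7 was -0.88, but -0.32 with a floor of 50 and -0.03 with the median over probe sets. Bnip3, a hypoxia-induced BH3-like receptor for mitophagy, was 4.09-fold lower on its single probe set (13371.8 to 3268.3). Bcl2l12 was 2.35-fold lower on the brighter probe set (348.6 to 148.3), while the other, under the floor without triptolide, was higher (112.4 to 286.6), so no direction is given and Bnip3 alone counts as lower. The antiapoptotic Bcl2l2 (BCL-W) had a log2 ratio of -0.96 and Bok, an effector-like gene, of -0.88 with the treated side under the floor. Becn1, the autophagy protein that BCL2 binds, was the highest at 0.67, with its other detected probe sets between -0.19 and 1.35, and the BH3-only gene Bad was at 0.11 and 0.75. Bcl2l10, Bcl2l14, Bcl2l15, Bik and Hrk were under the floor on both arrays. The genes of A1, an NF-kappaB-induced antiapoptotic protein of activated T cells, were not analysed here.

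Downstream of the mitochondria, 13 of 15 genes had a probe set, all were detected and 2 were past 2-fold, both lower, a share near the 12.4% of all detected genes. The median was -0.43, and 0.09 without shared probe sets, a setting that leaves out every ID with a letter before at, a_at included. The executioner caspase gene Casp6 was 4.63-fold lower (1866.1 to 403.1), and its dimmer probe set was under the floor with triptolide (196.6 to 6.6). Vdac2, a channel of the outer membrane that binds BAK, was 2.03-fold lower (10688.6 to 5262.8), and within 2-fold after scaling on the array medians (-0.90) or quantile normalization (-0.92). Cycs, which encodes cytochrome c, was higher on each of its 3 detected probe sets, by 1.55-fold on the brightest (10290.8 to 15970.9) and from 2208.3 to 4426.3 on the dimmest. Apaf1, the scaffold of the apoptosome, was the highest at 0.76 on its brightest probe set but at -0.65 on the other. Casp8 was at 0.09. Casp9 was at 0.14 on 1 probe set and at least 2-fold lower on another, which went under the floor (262.3 to 76.4), so no direction is given. Of 9 caspase inhibitors, 8 had a probe set and 6 were detected, 1 at least 2-fold higher (5.6% of all detected genes) and none lower. Their median of 0.18 turned to values between -0.05 and -0.01 under 4 alternatives (a floor of 50, housekeeping scaling, the median over probe sets and no shared probe sets), so it has no settled sign. The higher gene was Birc5, survivin, at 2.02-fold (430.6 to 871), a gene also tied to mitosis. It was within 2-fold after housekeeping scaling (0.83) or with a pseudocount of 100 (0.87). Birc3, an NF-kappaB target, was the lowest at -0.90 on its brightest probe set, and at least 2-fold lower on the other, which went under the floor (241.5 to 60.7).

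Of 16 genes for turnover and binding partners of the proteins, 15 were detected, 1 at least 2-fold higher (5.6% of all detected genes) and none lower. The median was 0.11, and -0.08 after housekeeping scaling. Bag1, a BCL2-binding cochaperone, was 2.28-fold higher on its single probe set (2136.6 to 4863.9). Dynll2, the light chain that holds BMF, was at 0.84 on the brighter-ranked of 2 probe sets and at -0.04 on the other. Huwe1, Usp9x and Fbxw7, which act on MCL1 stability, were at -0.02, 0.19 and -0.31 on their brightest probe sets, and Rnf7 was the lowest at -0.59.

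Of 16 transcription factors known to act on the family, 13 were detected, none at least 2-fold higher and 2 at least 2-fold lower (median -0.44), a share near the 12.4% of all detected genes. Rel, the NF-kappaB subunit that raises Bcl2l1 and the A1 genes in T cells, was 3.83-fold lower (1704.9 to 444.8), and Myc was 2.16-fold lower (6993.3 to 3241.7). The Myc ratio was within 2-fold after median scaling or quantile normalization, each at -0.98. Stat5a, which acts downstream of interleukins 2 and 7, was the highest at 0.68 (0.06 on its other probe set), and Stat5b was at -0.57 and -1.02 on its probe sets. Foxo3, which induces Bcl2l11 and Bbc3, was at 0.55 and 0.88. The related Foxo1 was at 0.15, -0.64 and -0.89, and Ddit3, which also induces Bcl2l11, at 0.48 and -0.76, so neither has a settled direction. Trp53 and Nfkb1 were not analysed here.

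The receptors upstream had the lowest median of the 6 lists. Of 10, 9 were detected, of which 5 were past 2-fold downwards and 1 upwards (12.4% and 5.6% of all detected genes), with a median of -1.13. Il7r, the receptor that sustains Bcl2, was 3.60-fold lower (1993.1 to 553.6) and more so on its other probe set (1248.5 to 192.4). Il2rb, the signalling chain shared by the receptors for interleukins 2 and 15, was 3.75-fold lower (6706.3 to 1786.2), and Cd28 2.92-fold (4619.5 to 1580). The costimulatory receptors of the TNF receptor family Tnfrsf9 (4-1BB) and Tnfrsf4 (OX40) were 3.06-fold and 2.19-fold lower. Il15ra, the private chain for interleukin 15, went the other way, from 374 to 1787.2 (4.78-fold higher), and from 391 to 1010.4 on its other probe set. The probe sets of Il2ra, the high-affinity chain for interleukin 2, disagreed, with 4177.3 and 3499.6 on 1420691_at (-0.26) and 1527.8 and 7334.4 on 1420692_at (2.26). These receptors also belong to T cell identity and activation genes, and the summed T cell markers, though not every single one, were lower on the same array, a link that was not tested.

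**Figure D3:**
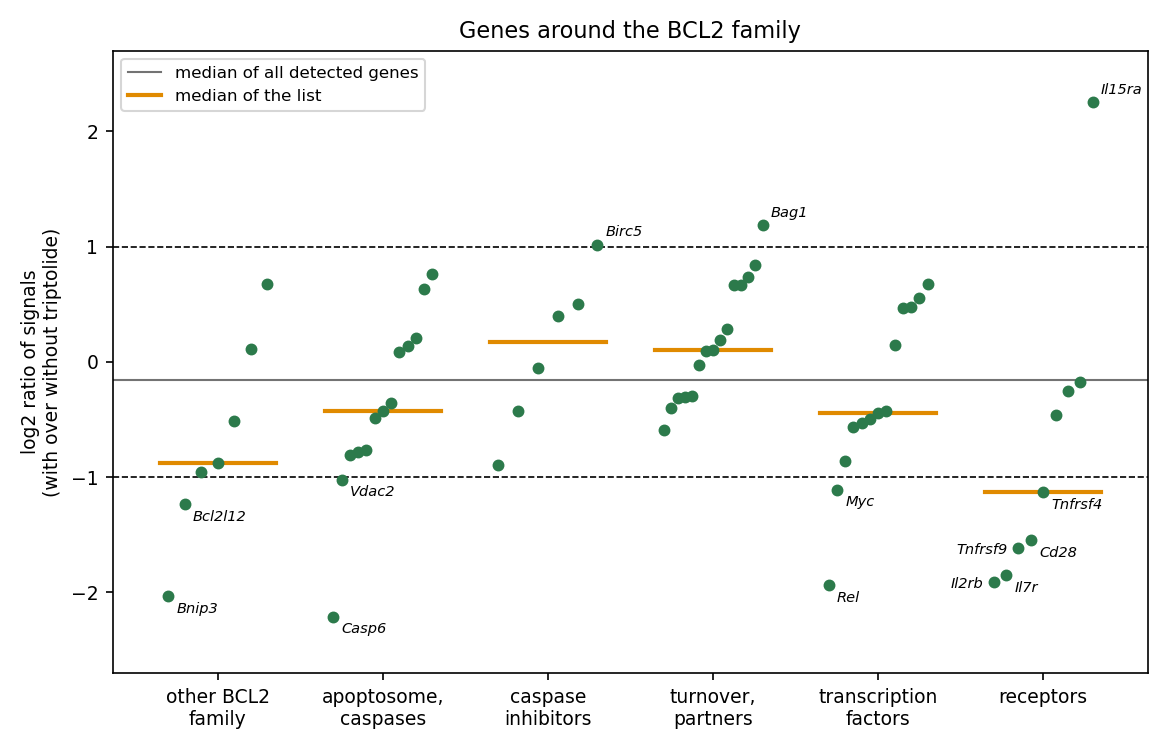
Log2 ratio of signals with over without triptolide for the detected genes of 6 lists around the BCL2 family, 1 point per gene on its brightest probe set, with genes past 2-fold (dashed lines) named. Orange bars are list medians and the grey line is the median of all detected genes, -0.16. The receptor list has the lowest median, -1.13, and Il15ra is its one point above 2-fold.

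**Figure D4:**
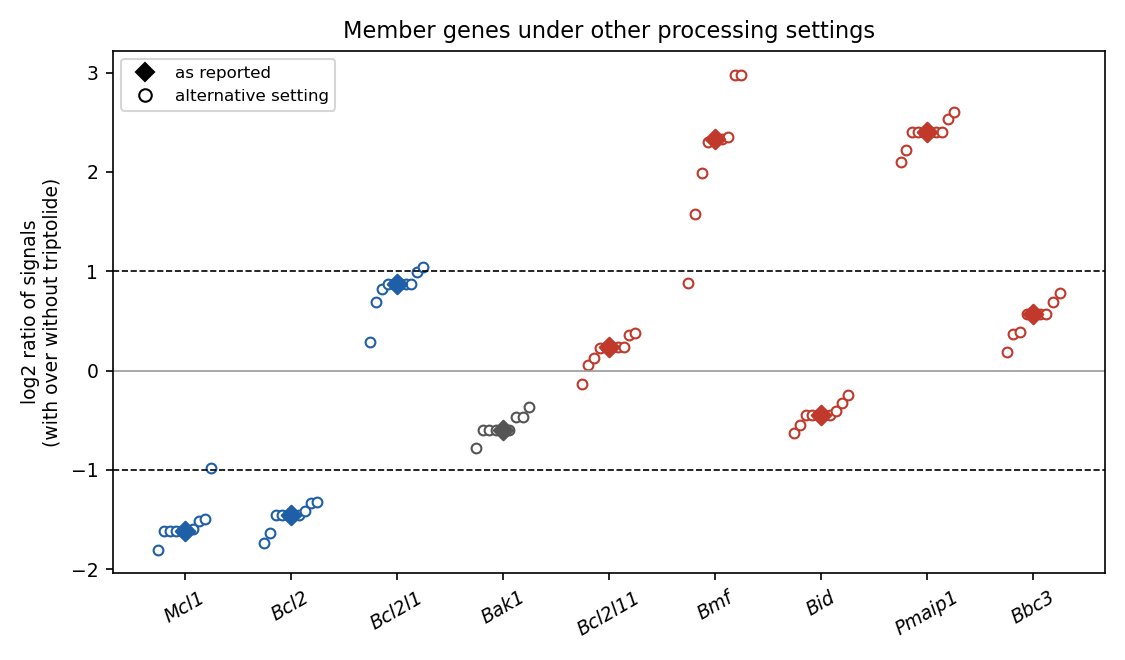
Log2 ratio of each member gene as reported (diamond) and under the alternative settings that gave a value (open circles), with dashed lines at 2-fold. Pmaip1 and Bcl2 stay past 2-fold throughout, while Mcl1 and Bmf each have 1 setting, the median over probe sets, within 2-fold.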

How the data were processed

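Total RNA of 2 samples was hybridised to Affymetrix arrays, 1 per group. Per the submitters' processing notes the authors used MAS5, and they deposited a linear intensity for every probe set. The MAS5 version and scaling settings are not stated in the sources used here, and detection calls were not used. Array number, not depth, limits the precision. Groups follow the source names. Names came from the platform annotation. Of 45037 probe sets, 34945 had 1 symbol, 932 several and 9160 none, and 34741 were matched by Entrez number to the RefSeq table of GRCm38.p6 for current symbols.

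The floor (higher of the 95th percentiles of 87 chemosensory receptor probe sets), the 2-fold rule and the gene's brightest probe set (highest mean log2 signal) gave all values. Log2 ratios and medians were computed with Python 3.11.15, numpy 2.4.6 and pandas 2.3.3, and the calculation was tested on simulated data. With 1 array per group no test was run. Named genes are all members, the members of each list past 2-fold, its highest and its lowest, and others picked after their values were seen. The members and lists were chosen with earlier results of these data known. Alternatives were 3 scalings, 2 floors or none, a pseudocount of 100, a limit to probe sets whose brighter array reached 4 times the floor, and, for genes, the median over probe sets and the omission of shared probe sets. Shared was taken broadly there, as any ID with a letter before at, such as a_at, s_at and x_at. That setting thus removed more than the probe sets open to sharing probes with other genes.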

Additional observations from a re-analysis of the deposited data

How the results depend on the processing

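No paired analysis was possible because each group has 1 sample, and no replicate could be left out. The counts of member probe sets stayed within 1.5 times of those reported in each of the 8 settings tried on them, between 7 and 11 lower and between 2 and 3 higher. Over the same settings the share of all detected probe sets at least 2-fold lower ran from 8.64% (quantile normalization) to 19.5% (no floor). The share at least 2-fold higher ran from 4.04% (housekeeping scaling) to 9.95% (no floor), so the counts alone do not show that the family held steady. Counted by gene, 1 member in place of 2 was at least 2-fold higher with the median over probe sets (Bmf at 0.88) and 1 without shared probe sets, where Bmf was not detected. With the median over probe sets 1 in place of 2 was at least 2-fold lower, since Mcl1 came to -0.98. Related genes numbered between 9 and 15 lower (11 as reported) and between 2 and 4 higher (3 as reported). Among all detected genes the share lower ran from 8.34% to 17.6% and the share higher from 3.93% to 9.56%. No member gene or member probe set past 2-fold changed sign. The Mcl1 probe sets 1456243_x_at and 1456381_x_at passed 2-fold only when scaled on housekeeping genes (log2 ratios of -1.06 and -1.08), and 1437527_x_at fell within 2-fold when scaled on the median or quantile normalized (down to -0.91). The median of the other BCL2 family genes moved from -0.88 to -0.32 with a floor of 50 and to -0.03 with the median over probe sets, and that of the caspase list from -0.43 to 0.09 without shared probe sets; the cause was not tested. Signals close to the floor, as for Bbc3 and Bmf, limit what can be said of those genes.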
